A study of Homo sapiens with 12 samples.

Results

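The comparison described here is the response of the B4-4 derivative of MCF10-A to EDTA, read from 4 of the 12 RNA-seq libraries of a study of integrin α6β4 in cells taken off their matrix. Members were chosen by their labels: 2 libraries labelled B4-4 EDTA (EDTA 1 and EDTA 2) were set against 2 labelled B4-4 NA (NA 1 and NA 2); the comparison itself was picked with earlier results of these data known. MCF10-A is an established, non-tumorigenic line of human mammary epithelial cells. All 12 libraries, the controls included, come from cells that were trypsinized and then held for 3 hours in serum-free medium over poly-HEMA, a coating that cells cannot attach to. The other 8 libraries, 2 each of Vector NA, Vector EDTA, Addback NA and Addback EDTA, served to estimate the spread between replicates. They also entered the scaling and the choice of genes with enough counts. The labels do not spell out NA, the dose or timing of EDTA, or the origin of the B4-4 and Addback derivatives, and they do not say whether a derivative is 1 clone. They also do not say that replicates were separate cultures, so the p-values below measure the spread between these libraries, which may be technical.

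EDTA binds calcium and magnesium ions. Integrins, the receptors that hold epithelial cells to laminin, collagen and fibronectin, need such ions to bind their ligands, and cadherins need calcium to hold neighbouring cells together. Integrin α6β4 anchors the hemidesmosome, a junction that ties the keratin network to laminin-332 in the basement membrane. In detached epithelial cells, signals that pass through integrins, the actin cytoskeleton, YAP and growth factor receptors are known to change, and cells that re-form contacts with each other or with secreted matrix can survive longer.

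Total counts were 17166964 in NA 1, 15685376 in NA 2, 19810710 in EDTA 1 and 19398488 in EDTA 2, and 15749 genes were tested. Levels are given as CPM, counts scaled to a common library size after TMM normalization, which compare a gene between libraries but not one gene with another. ITGB4 (ENSG00000132470, chromosome 17, bases 75721328 to 75757818 of GRCh38), the β4 chain, stood at 182 CPM in NA 1, 395 in NA 2, 372 in EDTA 1 and 390 in EDTA 2. All 4 values lay below the 1060 to 1850 CPM of the other 8 libraries. Between EDTA and NA the ITGB4 log2 fold change was 0.40 ± 0.29 (SE; adjusted p = 0.357), and NA 1 stood apart from the other 3. The fitted value was -0.05 without NA 1 (adjusted p = 0.75) and 1.07 without NA 2 (adjusted p = 4.96e-05). All 7 basal mammary markers were tested and none was called, with summed levels of 10290 and 10540 CPM in NA 1 and NA 2 and 11840 and 12520 CPM in EDTA 1 and EDTA 2. Of markers of other cells, 1 of 7 immune, 1 of 5 endothelial and 4 of 7 fibroblast genes had enough counts to be tested. The tested endothelial marker, PECAM1, fell from 24.9 and 8.81 CPM to 3.46 and 3.35, while VWF, CDH5, KDR and TEK had at most 10 counts in any of the 4 libraries. The PECAM1 call (adjusted p = 0.0407) ended without EDTA 1, EDTA 2, NA 1, any single Vector library or either Addback NA library. The 4 fibroblast markers summed to 17.0, 29.8, 15.8 and 15.4 CPM, with POSTN higher (1 and 5 counts against 28 and 33) and COL1A1 lower with EDTA. The 5 tested luminal markers summed to 1042 and 943 CPM in NA 1 and NA 2 and to 675 and 733 CPM with EDTA, with KRT18 lower (adjusted p = 0.0215); the KRT18 and COL1A1 calls ended without EDTA 1 or EDTA 2. Most of that sum is KRT8 and KRT18; FOXA1 and ESR1 had both EDTA values above both NA values, and the median log2 fold change of the 5 was 0.40. The part of these cells in the results was not tested, and in bulk RNA fewer cells of a type and less RNA per cell cannot be told apart.

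The 2 NA libraries differed far more from each other than the 2 EDTA libraries did. Of 10632 genes whose mean over all 12 libraries reached 5 CPM, 369 were at least 2-fold apart between NA 1 and NA 2 and 3 between EDTA 1 and EDTA 2. The correlation of log2 CPM across these genes was 0.961 for the NA pair, 0.997 for the EDTA pair and between 0.950 and 0.954 for an NA library with an EDTA library; genes are not independent replicates. The labels carry a sample index, which was 77 for NA 1, 64 for NA 2, 78 for EDTA 1 and 79 for EDTA 2, so that NA 1 shares its run of numbers with both EDTA libraries and NA 2 does not. The part of the index in the distance between NA 1 and NA 2 was not tested. Because of this distance each gene below is given in both NA libraries, and ratios of the mean of both EDTA libraries to NA 1 and to NA 2 are given separately as descriptions.

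In edgeR's quasi-likelihood test 3138 genes were called at an adjusted p under 0.05, which is 19.9% of those tested. Of these, 1556 were higher with EDTA (9.88% of genes tested) and 1582 lower (10%). With upper-quartile scaling the split was 1147 higher and 1972 lower, and with library totals alone 1225 higher and 1870 lower. In each of the 3138 genes both EDTA libraries lay on the same side of both NA libraries, while among all genes tested 30.2% had both EDTA libraries above and 29.3% both below. A change of at least 2-fold was called for 283 genes higher and 562 lower, and 149 and 217 of these were at least 2-fold from NA 1 and from NA 2 taken singly. The number called was 726 without EDTA 1, 796 without EDTA 2 and 4549 without NA 1. Counts of 1 or 2 genes in a list mostly changed by over 1.5 times without EDTA 1 or EDTA 2, and in many lists without other single libraries, and are given below as values only. In the scatter of the ratios to each NA library, THBS1 and CYP1B1 lie near the diagonal of equal ratios and FOS far from it.

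**Figure D1:**
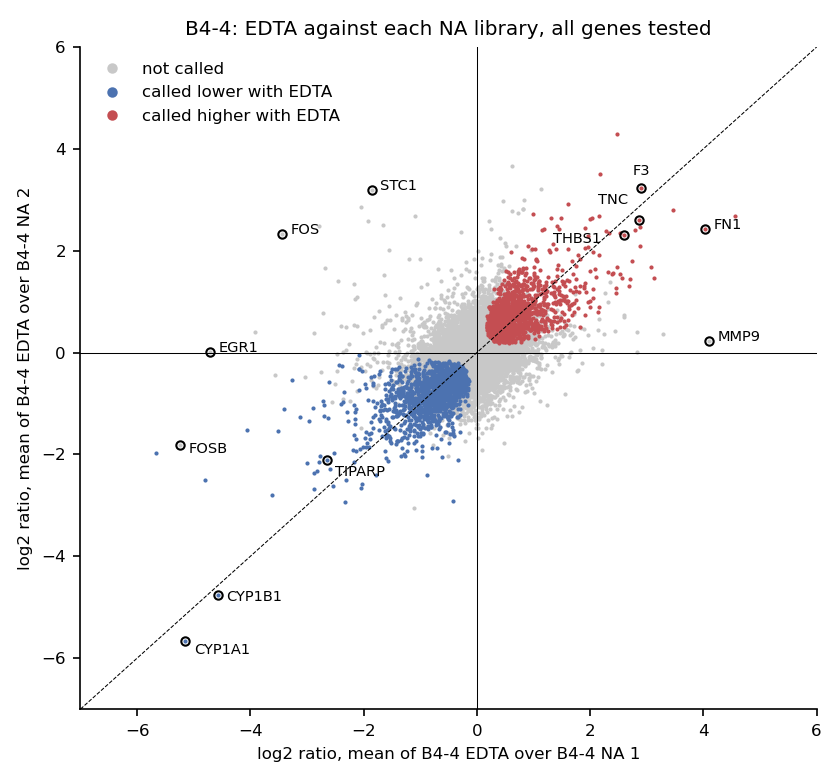
Log2 ratio of the mean of both B4-4 EDTA libraries to B4-4 NA 1 (x axis) against the ratio to B4-4 NA 2 (y axis) for the 15749 genes tested, with called genes in red (higher) and blue (lower). CYP1B1 sits near the dashed line of equal ratios at -4.57 and -4.76, while FOS lies off it at -3.43 and 2.34.

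Genes for matrix proteins and for integrins other than α6β4 were higher with EDTA. Of 17 tested, 13 rose and 1 fell, with a median log2 fold change of 0.83 against -0.01 over all genes tested, and the medians against NA 1 and NA 2 singly were 1.11 and 0.69. The count of genes that rose was 4 without EDTA 1 and 4 without EDTA 2. THBS1 (chromosome 15, bases 39581079 to 39599466) encodes thrombospondin-1, a secreted matrix protein that binds integrins and CD47. It had 141 and 172 CPM in NA 1 and NA 2 and 841 and 875 CPM in EDTA 1 and EDTA 2, a log2 fold change of 2.45 ± 0.17 (adjusted p = 1.3e-05). TNC encodes tenascin-C, a matrix protein of healing wounds. It went from 17.9 and 21.7 CPM to 129 and 139 CPM, with a log2 fold change of 2.76 ± 0.22 (adjusted p = 3.46e-05). For both genes the NA libraries lay close together and the groups were wide apart. FN1, fibronectin, had 36.8, 112, 608 and 610 CPM in the same order and a log2 fold change of 3.03 ± 0.75 (adjusted p = 0.0365). Its groups did not overlap, which held for every called gene, and NA 1 and NA 2 differed by more than in the genes above. The FN1 call ended without EDTA 1 (adjusted p = 0.134), EDTA 2 (0.127) or NA 1 (0.0942), and also without each of the Vector libraries (0.0574 to 0.0701) or either Addback NA library (0.0647 and 0.0651).

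Among the receptors of this group, ITGA2, the collagen-binding α2 chain, had 151 and 146 CPM in the NA libraries and 331 and 322 CPM with EDTA. Its log2 fold change was 1.14 ± 0.10 (adjusted p = 5.03e-05), with ratios of 1.11 to NA 1 and 1.16 to NA 2. ITGA1, the α1 chain, also a collagen receptor, rose by a log2 fold change of 0.83 ± 0.14 (adjusted p = 0.00214) from 33.0 and 36.0 CPM to 66.9 and 55.5. LAMB1, the β1 chain of several laminins but not of laminin-332, was the member that fell. It had 481, 486, 340 and 330 CPM in NA 1, NA 2, EDTA 1 and EDTA 2, a log2 fold change of -0.53 ± 0.08 (adjusted p = 0.00124).

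The hemidesmosome list held 13 genes, of which 9 rose and none fell, with a median log2 fold change of 0.84 and medians of 1.02 and 0.73 against NA 1 and NA 2. COL17A1, a transmembrane collagen of the hemidesmosome, had 596 and 589 CPM in the NA libraries and 1036 and 1078 CPM with EDTA. Its log2 fold change was 0.84 ± 0.08 (adjusted p = 8.41e-05), and the ratios to NA 1 and NA 2 were 0.83 and 0.84. PLEC, plectin, which links the β4 tail to keratin, had 991, 793, 1754 and 1744 CPM in NA 1, NA 2, EDTA 1 and EDTA 2, a log2 fold change of 0.97 ± 0.11 (adjusted p = 0.000229). COL7A1, the anchoring fibril collagen, and FERMT1, kindlin-1, an activator of β1 integrins, rose by log2 fold changes of 1.01 ± 0.13 and 0.98 ± 0.14 (adjusted p = 0.000446 and 0.000776). ITGA6, the partner chain of β4, rose by 0.79 ± 0.13 (adjusted p = 0.00225), with a ratio of 1.02 to NA 1 and 0.59 to NA 2. The chain that pairs with β4 thus rose while ITGB4 was not called, and the difference between them was not tested.

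LAMA3 and LAMB3, chains of laminin-332, the ligand of α6β4, rose and lay at different distances from the NA libraries. LAMA3, the α3 chain, had 536 and 897 CPM in NA 1 and NA 2 and 2061 and 2040 CPM with EDTA, a log2 fold change of 1.52 ± 0.21 (adjusted p = 0.00144). LAMB3, the β3 chain, had 539, 1294, 2292 and 2518 CPM and a log2 fold change of 1.39 ± 0.33 (adjusted p = 0.0237). Its call ended without EDTA 1 (adjusted p = 0.0976) and without EDTA 2 (0.113). In both chains the order was NA 1, NA 2, then both EDTA libraries.

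Genes of the actin cytoskeleton, many of them targets of the transcription factor SRF, rose as well. SRF binds a short AT-rich motif called the CArG box, and its partner MRTF is held in the cytoplasm by free actin monomers. Of 29 genes tested, 17 rose and none fell; the median log2 fold change was 0.71, or 0.97 against NA 1 and 0.53 against NA 2. The count was 10 without EDTA 1 and 11 without EDTA 2. CArG boxes, searched on both strands of the 250 bases before each RefSeq start, occurred in 6 of 25 promoters of this list (24%) and in 1.0% of the 11235 promoters of tested genes. They also occurred in 2 of 9 promoters of the aryl hydrocarbon receptor list described further on (22.2%) and in 1.7% of promoters of all genes called higher. The actin list was made to hold known SRF targets, so its share of boxes does not bear on EDTA. No CArG match overlapped a match to the other motifs searched. The 2 promoters below, from the RefSeq table on GRCh38.p14, show the boxes in capitals in SRF itself and in TPM4, a list member with a box. SRF lies on the plus strand at chr6:43171019-43171268 and TPM4 on the plus strand at chr19:16067288-16067537.
SRF: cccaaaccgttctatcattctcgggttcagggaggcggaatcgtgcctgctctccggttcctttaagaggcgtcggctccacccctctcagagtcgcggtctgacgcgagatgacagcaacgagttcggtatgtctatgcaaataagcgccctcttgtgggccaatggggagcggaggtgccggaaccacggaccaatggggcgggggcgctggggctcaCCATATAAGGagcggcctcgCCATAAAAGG
TPM4: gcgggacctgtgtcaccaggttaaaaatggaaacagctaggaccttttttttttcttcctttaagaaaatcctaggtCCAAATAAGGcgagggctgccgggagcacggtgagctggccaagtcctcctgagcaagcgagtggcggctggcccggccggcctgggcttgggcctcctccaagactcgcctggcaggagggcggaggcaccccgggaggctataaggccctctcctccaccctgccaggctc

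The SRF boxes began 30 and 10 bases before the start, and the TPM4 box 173 bases before it. SRF had 74.6, 72, 96.6 and 105 CPM in NA 1, NA 2, EDTA 1 and EDTA 2, a log2 fold change of 0.46 ± 0.12 (adjusted p = 0.018). The groups were apart, but the SRF call ended without EDTA 1 (adjusted p = 0.0822) and without EDTA 2 (0.159). TPM4, a tropomyosin that coats actin filaments, had 381, 635, 1226 and 1197 CPM and a log2 fold change of 1.25 ± 0.21 (adjusted p = 0.00386). MYH9, the heavy chain of non-muscle myosin IIA, had 820 and 920 CPM in the NA libraries and 2221 and 2248 CPM with EDTA. Its log2 fold change was 1.36 ± 0.12 (adjusted p = 5.03e-05), and NA 1 and NA 2 differed little beside the distance to EDTA. FLNA, a crosslinker of actin filaments, rose by 1.08 ± 0.13 and VCL, vinculin, which couples talin to actin, by 0.94 ± 0.12 (adjusted p = 0.000398 and 0.000564). ACTN1, α-actinin-1, which bundles filaments, rose by 0.92 ± 0.18 (adjusted p = 0.00558). TLN1, talin, rose by 0.56 ± 0.11 (adjusted p = 0.00461), with equal levels in NA 1 and NA 2 (373 and 371 CPM). ACTB, β-actin, had 3687 CPM in NA 1, 8366 in NA 2 and 10305 and 10774 with EDTA, and was not called (adjusted p = 0.0969), but was called without NA 1 (0.33, adjusted p = 0.015) and without NA 2 (1.52, adjusted p = 4.2e-07). A match to a CArG box is a description of letters and not of binding.

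In the focal adhesion list 9 of 18 genes rose and 1 fell, with a median log2 fold change of 0.52. The count that rose was 5 without EDTA 1 and 5 without EDTA 2. TNS4, a tensin that binds integrin tails, had 580, 550, 1025 and 993 CPM in NA 1, NA 2, EDTA 1 and EDTA 2, a log2 fold change of 0.84 ± 0.08 (adjusted p = 8.41e-05). BCAR1, the adaptor p130Cas, rose by 0.75 ± 0.10 (adjusted p = 0.000799). PDLIM7 and CAV1, a LIM domain protein of stress fibres and the coat protein of caveolae, rose by 1.26 ± 0.23 and 0.83 ± 0.14 (adjusted p = 0.00543 and 0.00291). In PDLIM7 the ratio was 1.79 to NA 1 and 0.87 to NA 2, whereas in TNS4 and BCAR1 both ratios were nearly equal.

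**Figure D2:**
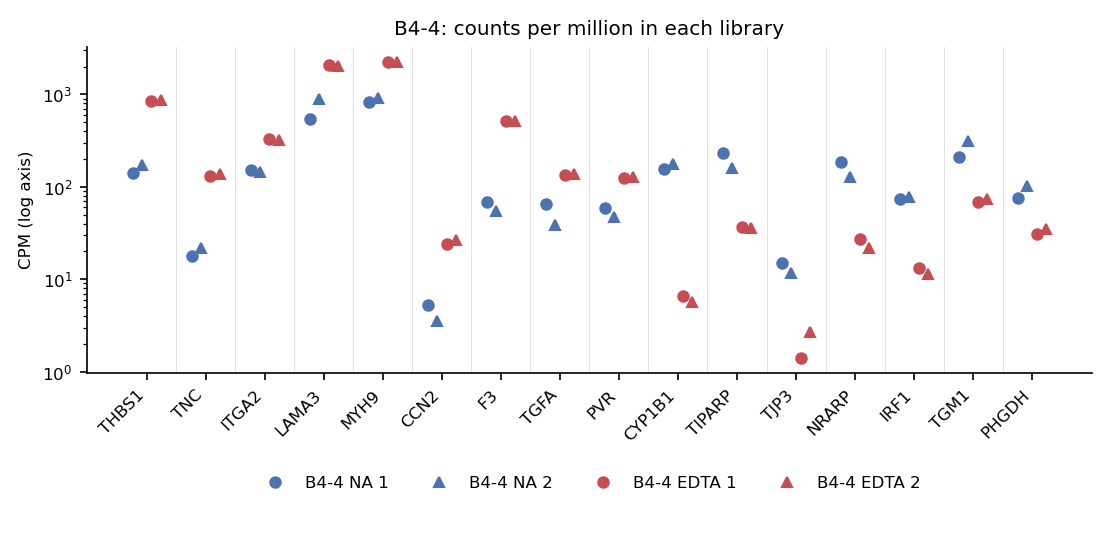
CPM on a log axis for 16 named genes in the 4 B4-4 libraries; blue marks NA, red marks EDTA, circles replicate 1 and triangles replicate 2. In each gene drawn the 2 EDTA values lie on one side of both NA values, as for THBS1 (141 and 172 CPM against 841 and 875).

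YAP and TAZ are coactivators that enter the nucleus when the actin cytoskeleton is under tension and act on genes with TEAD factors. Of 24 genes of their target list 9 rose and none fell, with a median log2 fold change of 0.42 and medians of 0.47 against NA 1 and 0.47 against NA 2. The count was 5 without EDTA 1, 5 without EDTA 2, and 14 without Addback EDTA 1 or Addback EDTA 2. CCN2, a secreted matricellular protein, had 5.28 and 3.51 CPM in the NA libraries and 24.1 and 26.5 CPM with EDTA, a log2 fold change of 2.52 ± 0.23 (adjusted p = 5.03e-05). F3, tissue factor, the starter of blood clotting, had 68.8, 54.2, 511 and 519 CPM in NA 1, NA 2, EDTA 1 and EDTA 2. AJUBA, a LIM protein that restrains the LATS kinases, and FJX1, a secreted kinase-like protein, rose by log2 fold changes of 0.94 ± 0.09 and 1.42 ± 0.11 (adjusted p = 7.64e-05 and 1.31e-05). CCN1, a close relative of CCN2, had 88.7, 35.6, 65 and 74.3 CPM and was not called (adjusted p = 0.839). Its EDTA values lay between NA 1 and NA 2, unlike those of CCN2.

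The core letters of the TEAD site, GGAATG, searched on both strands of the same windows, were present in 5 of 18 promoters of this list (27.8%) and in 9.3% of all 11235. They were present in 10.3% of promoters of all genes called higher. The list was made of known YAP and TAZ targets, so its share does not bear on EDTA. Among the 5, CCN2 and NUAK2 were called higher, while FOXF2, PTPN14 and TGFB2 were not called. The promoters of F3, FJX1 and AJUBA, which rose, held no match. A match to GGAATG overlapped one to GCGTG, the motif used further on, in 9 promoters. The CCN2 promoter, on the minus strand at chr6:131951373-131951622 of GRCh38.p14, is shown because it held 3 matches (capitals), beginning 169, 104 and 95 bases before the start.
CCN2: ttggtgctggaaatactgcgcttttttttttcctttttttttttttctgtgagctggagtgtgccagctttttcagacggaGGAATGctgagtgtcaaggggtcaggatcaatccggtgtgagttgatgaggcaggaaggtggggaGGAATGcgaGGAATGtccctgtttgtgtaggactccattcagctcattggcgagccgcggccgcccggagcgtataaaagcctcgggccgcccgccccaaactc

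Cell contact genes were called in both directions, as were all genes tested (9.88% higher and 10% lower). Of 13 adherens junction and nectin genes 3 rose and 1 fell (23.1% and 7.69%). Of 9 desmosome genes 1 rose and none fell (11.1% and 0%). Of 14 tight junction genes 2 rose and 3 fell (14.3% and 21.4%). Each list holds few genes, so these shares are coarse beside those of all genes. The adherens junction count of genes that rose was 1 without EDTA 1 or EDTA 2 and 5 without Addback EDTA 1 or Addback EDTA 2. The tight junction count of genes that fell was 1 without EDTA 1, EDTA 2, NA 2, or any single Vector NA or Addback NA library. PVR, a nectin-like adhesion molecule also known as the poliovirus receptor, had 58.5, 46.9, 123 and 127 CPM in NA 1, NA 2, EDTA 1 and EDTA 2, a log2 fold change of 1.25 ± 0.14 (adjusted p = 0.00027). TJP3, the scaffold ZO-3, had 14.8 and 11.8 CPM in the NA libraries and 1.4 and 2.66 CPM with EDTA, a log2 fold change of -2.71 ± 0.27 (adjusted p = 9.43e-05). Both genes were apart between the groups by more than NA 1 was from NA 2. NECTIN4 had 19.9, 17.7, 8.12 and 6.28 CPM and a log2 fold change of -1.38 ± 0.35 (adjusted p = 0.0215). That call ended without EDTA 1 (adjusted p = 0.0969), EDTA 2 (0.156), NA 1 (0.0819) or NA 2 (0.0527).

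TGFA, EREG and AREG, ligands of the EGF receptor, rose with EDTA. TGFA had 65.3 and 38.2 CPM in the NA libraries and 135 and 136 CPM with EDTA, a log2 fold change of 1.39 ± 0.19 (adjusted p = 0.00102). EREG, epiregulin, had 17.9, 7.73, 51.3 and 50.7 CPM in NA 1, NA 2, EDTA 1 and EDTA 2 and a log2 fold change of 1.98 ± 0.32 (adjusted p = 0.00406). AREG, amphiregulin, had 159, 63.9, 479 and 492 CPM and a log2 fold change of 2.12 ± 0.36 (adjusted p = 0.00701). In all 3 ligands NA 1 lay above NA 2 and both EDTA libraries lay above NA 1. The AREG call ended without EDTA 1 (adjusted p = 0.0533) and without EDTA 2 (0.0529). The receptor gene EGFR had 536, 310, 532 and 531 CPM and was not called (adjusted p = 0.227), but was called without NA 1 (0.78, adjusted p = 4.7e-05). DUSP6, a phosphatase that ERK signalling induces, had 25.3 CPM in NA 1, 2.62 in NA 2 and 38.9 and 39.2 with EDTA (adjusted p = 0.224). Without NA 1 the DUSP6 log2 fold change was 3.89 and was called (adjusted p = 4.68e-06). Over the 22 genes of the list, which also holds ERK feedback genes and ETS factors, 5 rose and 2 fell. These shares were 22.7% and 9.09%, against 9.88% and 10% of all genes tested. The median against NA 1 was 0.12 while against NA 2 it was 1.25. The count that rose was 13 without NA 1 and 2 without EDTA 1 or EDTA 2.

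In the list of TGF-β, BMP and ID genes 8 of 19 rose and none fell, with a median log2 fold change of 0.28; the count was 3 without EDTA 1 and 3 without EDTA 2. TGFBI, a secreted matrix protein that TGF-β induces, had 900, 1261, 2584 and 2638 CPM in NA 1, NA 2, EDTA 1 and EDTA 2, a log2 fold change of 1.27 ± 0.18 (adjusted p = 0.00116). SKIL, a feedback repressor of SMAD proteins, rose by 1.36 ± 0.19 from 13.1 and 15.8 CPM (adjusted p = 0.000805). TGFBR2, a receptor chain, rose by 0.61 ± 0.11 (adjusted p = 0.00272). For each of these the groups were apart with NA 1 and NA 2 on one side, which held for every called gene.

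Among genes that fell were targets of the aryl hydrocarbon receptor (AHR), a ligand-activated transcription factor that induces enzymes of xenobiotic metabolism. CYP1B1 (chromosome 2, bases 38066973 to 38109902), a cytochrome P450, had 156 and 177 CPM in the NA libraries and 6.52 and 5.64 CPM with EDTA, a log2 fold change of -4.77 ± 0.35 (adjusted p = 0.000134). CYP1A1 (chromosome 15, bases 74719542 to 74725610), its relative, had 54.4, 78.4, 1.09 and 1.01 CPM in NA 1, NA 2, EDTA 1 and EDTA 2. Its log2 fold change was -5.97 ± 0.85 (adjusted p = 0.00537), and the call ended without EDTA 1 (adjusted p = 0.0663) and without EDTA 2 (0.0598). TIPARP, a mono-ADP-ribosyltransferase that AHR induces and that restrains AHR, had 232, 159, 37.1 and 35.9 CPM, a log2 fold change of -2.42 ± 0.19 (adjusted p = 3.46e-05). In these 3 genes NA 1 and NA 2 lay close together beside the distance to EDTA. The receptor gene AHR had 30.4, 22.7, 26.2 and 21.9 CPM and was not called (adjusted p = 0.624). Over the list 4 of 11 genes fell and none rose, with a median log2 fold change of -0.28, and the count was 2 without EDTA 1 and 2 without EDTA 2.

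AHR and its partner ARNT bind the core letters GCGTG. These were present on either strand in 5 of 9 promoters of the list (55.6%) and in 44.9% of all 11235 promoters. The share was 43.7% in promoters of all genes called lower. The list was made of AHR, its partner and known targets, so its share does not bear on EDTA. Among the 5, CYP1A1 and TIPARP were called lower, while AHRR, SLC7A5 and UGT1A6 were not called. NQO1, which fell, held no match. The CYP1A1 promoter, on the minus strand at chr15:74725529-74725778 of GRCh38.p14, is shown with its 1 GCGTG match in capitals. That match begins 57 bases before the RefSeq start. Letters that match the CArG pattern, left in lower case, begin 34 bases before the same start, and SRF binding there was not tested. The gene bases given above for CYP1A1 reach 74725610, so part of this window, with the GCGTG match, lies inside them.
CYP1A1: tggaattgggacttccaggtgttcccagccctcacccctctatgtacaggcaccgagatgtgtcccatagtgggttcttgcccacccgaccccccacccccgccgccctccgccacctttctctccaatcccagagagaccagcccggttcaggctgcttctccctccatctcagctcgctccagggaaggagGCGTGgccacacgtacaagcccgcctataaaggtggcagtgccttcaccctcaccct

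The rule for named genes took the 15 largest called changes in each direction among genes whose mean reached 5 CPM. It also required both EDTA libraries to lie on one side of both NA libraries. Of these 30 genes, 18 kept the call when each of the 12 libraries was left out in turn, 10 of them higher and 8 lower. Those higher with EDTA were SPOCD1, F3, ENC1, TNC, AMIGO2, WNT9A, LCP1, CCN2, PDCD1LG2 and THBS1. AMIGO2, a transmembrane adhesion protein, had 14, 18.8, 105 and 108 CPM in NA 1, NA 2, EDTA 1 and EDTA 2, and a log2 fold change of 2.70 ± 0.14 (adjusted p = 1.69e-06). WNT9A, a secreted Wnt ligand, had 2.07 and 2.04 CPM in the NA libraries and 12.8 and 11.9 CPM with EDTA (log2 fold change 2.59 ± 0.35, adjusted p = 0.000703). LCP1, the actin-bundling protein L-plastin, had 3.04, 5.56, 25.6 and 25.4 CPM (adjusted p = 0.000595). PDCD1LG2 encodes PD-L2, a ligand of the immune checkpoint receptor PD-1, and rose from 1.03 and 3.51 CPM to 12.9 and 11.9 CPM (adjusted p = 0.00435). SPOCD1 had 8 and 16 counts in the NA libraries and 211 and 174 counts with EDTA (log2 fold change 3.78 ± 0.49, adjusted p = 0.000562). ENC1, an actin-associated protein, had 5.11, 1.72, 24.7 and 25.2 CPM (adjusted p = 0.000343).

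Those lower with EDTA and kept throughout were CYP1B1, ETNK2, LAPTM5, TJP3, RHOV, NRARP, IRF1 and BBOX1. IRF1, a transcription factor of the interferon response, had 74.3 and 77.9 CPM in the NA libraries and 13.2 and 11.4 CPM with EDTA, a log2 fold change of -2.63 ± 0.15 (adjusted p = 2.91e-06). RHOV had 131, 201, 26.9 and 24.6 CPM in NA 1, NA 2, EDTA 1 and EDTA 2 (log2 fold change -2.69 ± 0.20, adjusted p = 1.89e-05). LAPTM5, a lysosomal membrane protein, had 31.9, 22.3, 4.29 and 3.83 CPM (adjusted p = 9.76e-06). NRARP, a Notch target that damps Notch signalling, had 184, 129, 27.5 and 21.9 CPM and a log2 fold change of -2.66 ± 0.32 (adjusted p = 0.00128). BBOX1, the last enzyme of carnitine synthesis, had 14.6, 16.7, 1.96 and 3.14 CPM (adjusted p = 6.08e-05). ETNK2, an ethanolamine kinase, had 19.5, 10.7, 1.71 and 2.29 CPM (adjusted p = 0.00288). That the 2 NA libraries lay on one side of both EDTA libraries in each gene was required by the rule. Within the Notch list as a whole, 1 of 16 genes rose and 2 fell (6.25% and 12.5%), against 9.88% and 10% of all genes tested.

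The other 12 of the 30 lost the call without EDTA 1, without EDTA 2 or without both in turn, and most also without further libraries. They were FST, CSF3, FN1, DKK1 and CLCF1 among genes higher with EDTA, and CYP1A1, NR4A1, IQCN, CAMK2B, ATF3, KRT15 and SYT12 among those lower. The largest adjusted p that leaving out 1 library gave lay between 0.0652 (CSF3) and 0.194 (ATF3). FST, follistatin, a binder of activins, had 4.13, 16.6, 107 and 112 CPM in NA 1, NA 2, EDTA 1 and EDTA 2, and CSF3, the granulocyte growth factor, had 7.29, 1.72, 40.2 and 45.7 CPM. KRT15, a basal keratin, had 1438, 368, 121 and 130 CPM, and IQCN had 71.8, 14.2, 1.71 and 2.50 CPM. The groups were apart by the rule, while NA 1 and NA 2 stood at different levels in these genes.

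Genes of iron storage fell while the gene of iron uptake rose. FTH1, the ferritin heavy chain, had 1146 and 1041 CPM in the NA libraries and 692 and 718 CPM with EDTA, a log2 fold change of -0.63 ± 0.10 (adjusted p = 0.00177). FTL, the light chain, had 648, 405, 288 and 298 CPM and a log2 fold change of -0.85 ± 0.16 (adjusted p = 0.00537), a call that ended without EDTA 1 (adjusted p = 0.0663) and without EDTA 2 (0.0525). TFRC, the transferrin receptor, had 296, 203, 429 and 431 CPM in NA 1, NA 2, EDTA 1 and EDTA 2, a log2 fold change of 0.78 ± 0.14 (adjusted p = 0.00295). All 3 genes had the groups apart, as had every called gene. GPX4, the enzyme that repairs lipid peroxides, had 121, 186, 81.5 and 82.9 CPM, a log2 fold change of -0.90 ± 0.18 (adjusted p = 0.00723); its call ended without EDTA 1 (adjusted p = 0.0619) and without EDTA 2 (0.0531). PROM2, prominin-2, a protein of membrane protrusions, had 13.6, 15.8, 5.64 and 5.75 CPM and a log2 fold change of -1.37 ± 0.15 (adjusted p = 0.000213). Of the 15 ferroptosis and iron genes tested 2 rose and 5 fell, and the count that fell was 2 without EDTA 1 and 2 without EDTA 2. The shares of this iron list were 13.3% higher and 33.3% lower, against 9.88% and 10% of all genes tested. NFE2L2, the antioxidant transcription factor NRF2, fell by 0.85 on the log2 scale from 195 and 233 CPM to 118 and 119 CPM (adjusted p = 0.000832). In the NRF2 list the shares were 4.55% higher and 22.7% lower. Of 22 genes in the list of NRF2 and its antioxidant targets 1 rose and 5 fell, the latter count being 1 without EDTA 1 and 3 without EDTA 2.

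Genes of the endoplasmic reticulum stress response were called in both directions. Of the 20 tested, 20% were called higher and 15% lower, against 9.88% and 10% of all genes tested. DNAJB9, HERPUD1 and XBP1, a co-chaperone, a component of protein degradation and the transcription factor of the unfolded protein response, fell. HERPUD1 had 192, 147, 68.8 and 71.7 CPM in NA 1, NA 2, EDTA 1 and EDTA 2 and a log2 fold change of -1.27 ± 0.18 (adjusted p = 0.00125). The log2 fold changes of DNAJB9 and XBP1 were -1.14 ± 0.15 and -0.61 ± 0.10 (adjusted p = 0.000614 and 0.00205). HYOU1, a chaperone of the lumen, rose by 0.57 ± 0.10 (adjusted p = 0.00224), and HSPA5, the chaperone BiP, was not called, at 1032, 813, 908 and 973 CPM (adjusted p = 0.877). Of 20 genes 4 rose and 3 fell; the count that rose was 1 without EDTA 1 or EDTA 2 and 7 without NA 2, and the count that fell was between 3 and 4 without any 1 of the 12 libraries.

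PHGDH, the first enzyme of serine synthesis, had 76.4, 103, 31.0 and 34.7 CPM in NA 1, NA 2, EDTA 1 and EDTA 2, a log2 fold change of -1.45 ± 0.15 (adjusted p = 0.000148). In its list of ATF4 targets and amino acid genes 1 of 29 rose and 3 fell, and the count that fell was 12 without NA 1, 5 without NA 2, Addback EDTA 1 or Addback EDTA 2, and 1 without EDTA 1 or EDTA 2. The shares of the ATF4 list, 3.45% higher and 10.3% lower, were near or below the 9.88% and 10% of all genes tested. Among lipid genes, TM7SF2, a sterol reductase of cholesterol synthesis, had 15.5 and 18.8 CPM in the NA libraries and 4.96 and 5.27 CPM with EDTA (log2 fold change -1.74 ± 0.19, adjusted p = 0.000155). FADS2, a fatty acid desaturase, and LPIN1, a phosphatidate phosphatase, fell by 0.90 and 1.20 on the log2 scale (adjusted p = 0.0016 and 0.000799). GPAM, the first enzyme of glycerolipid synthesis, rose by 0.79 ± 0.11 (adjusted p = 0.000764). Of 23 cholesterol genes none rose and 4 fell (0% and 17.4%). Of 17 fatty acid and glycerolipid genes 2 rose and 4 fell (11.8% and 23.5%). The cholesterol count was 1 without EDTA 1, and the fatty acid count that fell was 2 without EDTA 1 or EDTA 2 and 7 without NA 2.

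Cytosolic ribosomal protein genes were lower with EDTA by a small and even amount. Of 79 tested, 69 fell and none rose, with a median log2 fold change of -0.42 and medians of -0.33 against NA 1 and -0.51 against NA 2. In 76 of the 79 both EDTA libraries lay below both NA libraries, against 29.3% of all genes tested. These genes also moved together between the NA libraries and are not independent of each other. Of the 79, 1 was lower in NA 2 than in NA 1, and the median log2 ratio of NA 2 to NA 1 was 0.18. With the 4 B4-4 libraries fitted alone, 0 of the 79 were called lower. In the large subunit 41 of 47 genes fell (median -0.41) and in the small subunit 28 of 32 (median -0.45); the difference between subunits was not tested. RPL13A had 2494 and 2956 CPM in NA 1 and NA 2 and 1784 and 1764 CPM with EDTA, a log2 fold change of -0.62 ± 0.11 (adjusted p = 0.00366). RPLP0, a stalk protein of the large subunit, RPL12 and RPL19 changed by -0.52 ± 0.09, -0.58 ± 0.11 and -0.50 ± 0.09 (adjusted p = 0.00342, 0.00385 and 0.00404). The lowest fold changes of each subunit, RPL36A (-0.95) and RPS10 (-0.85), rested on levels of at most 2.81 CPM and were not called. Ribosomal protein genes have many processed pseudogenes, and no source used here says how reads that match several copies were counted. The count of ribosomal protein genes that fell was 9 without EDTA 1, 5 without EDTA 2, 37 without NA 2 and 73 without NA 1.

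Of 23 translation factors tested 9 fell and 2 rose; the count that fell was 4 without EDTA 1 or EDTA 2 and 14 without NA 1. EIF4B, which assists the helicase that unwinds mRNA leaders, had 831, 916, 540 and 555 CPM in NA 1, NA 2, EDTA 1 and EDTA 2, a log2 fold change of -0.67 ± 0.09 (adjusted p = 0.000776). EEF1A1, the elongation factor that delivers tRNAs, and EIF3E, a subunit of the initiation factor eIF3, changed by -0.52 ± 0.08 and -0.46 ± 0.09 (adjusted p = 0.0018 and 0.00404). EIF4G1, the scaffold of the cap-binding complex, rose by 0.59 ± 0.10, from 828 and 710 CPM to 1144 and 1172 CPM (adjusted p = 0.00196).

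Nuclear genes of the mitochondrial respiratory chain and ATP synthase also leaned down. Of 71 tested, 37 fell and none rose, with a median of -0.34, and in 65 both EDTA libraries lay below both NA libraries. Here too most genes were higher in NA 2: 11 of the 71 were lower in NA 2 than in NA 1. Their median log2 ratio of NA 2 to NA 1 was 0.17. With the 4 B4-4 libraries fitted alone, 1 of the 71 was called lower. By complex, 13 of 33 genes of complex I fell, 2 of 4 of complex II, 7 of 9 of complex III, 9 of 10 of complex IV and 6 of 15 of ATP synthase, with medians between -0.28 (ATP synthase) and -0.47 (complex IV). Differences between complexes were not tested. ATP5MC2, which encodes the c subunit of ATP synthase, had 135, 138, 85.9 and 87.7 CPM in NA 1, NA 2, EDTA 1 and EDTA 2 and a log2 fold change of -0.65 ± 0.09 (adjusted p = 0.000633). The count that fell was 3 without EDTA 1, 3 without EDTA 2, 19 without NA 2 and 54 without NA 1. Proteasome subunits, another set of even high expression, had a median of 0.04, and the sign of that median changed with scaling (-0.03 with upper-quartile factors).

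**Figure D3:**
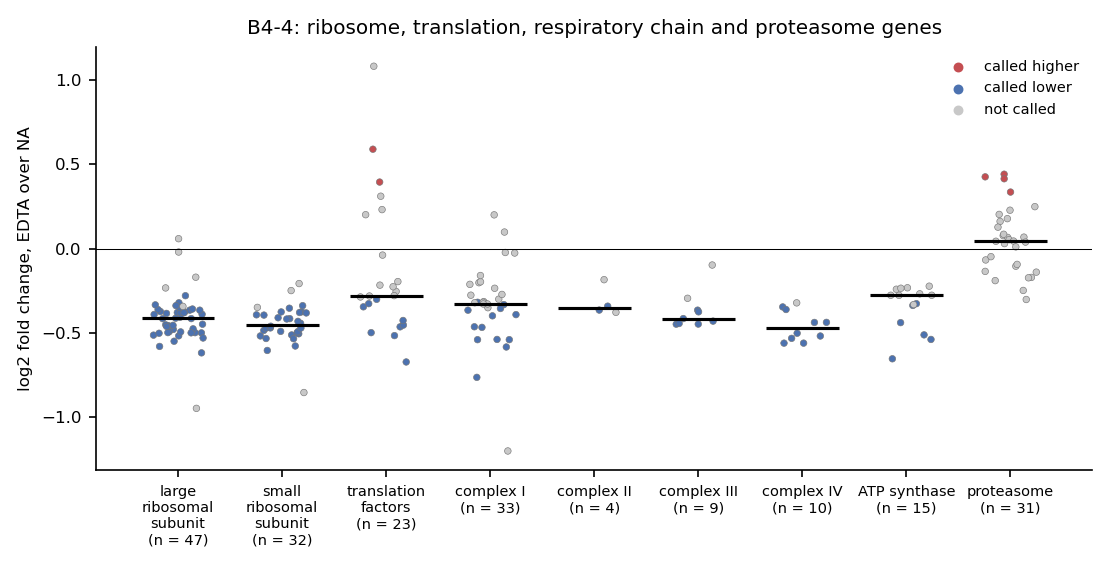
Log2 fold change of each gene (EDTA over NA in B4-4) by complex, with black lines at the medians; blue points were called lower, red called higher and grey not called. The ribosomal medians lie at -0.41 and -0.45, and that of the proteasome subunits at 0.04.

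Part of the cell cycle genes rose with EDTA. Of 24 G2/M and mitosis genes 11 rose and 1 fell, with a median of 0.34 and medians of 0.38 and 0.35 against NA 1 and NA 2, and the count that rose was 5 without EDTA 1 and 4 without EDTA 2. KIF23, a kinesin of cytokinesis, had 102, 83.0, 155 and 160 CPM in NA 1, NA 2, EDTA 1 and EDTA 2, a log2 fold change of 0.77 ± 0.11 (adjusted p = 0.000772). CDC20, an activator of the anaphase-promoting complex, PLK1, a mitotic kinase, and CCNB1, cyclin B1, rose by 0.68 ± 0.11, 0.54 ± 0.10 and 0.53 ± 0.10 (adjusted p = 0.00234, 0.00396 and 0.00388). Of 24 G1/S genes 6 rose and none fell, with a median of 0.20; the count was 2 without EDTA 1 or EDTA 2 and 13 without NA 1. CCND1, cyclin D1, which growth factors and adhesion induce, had 131 and 141 CPM in the NA libraries and 295 and 301 CPM with EDTA, a log2 fold change of 1.14 ± 0.14 (adjusted p = 0.00046). UHRF1, which keeps DNA methylation through replication, rose by 0.92 ± 0.09 (adjusted p = 0.000118). In both genes the 2 NA libraries lay close together, and the groups were apart as in every called gene.

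Keratins and squamous differentiation genes were called in both directions. KRT6A, a keratin of the wound response, had 1852, 2291, 3836 and 4060 CPM in NA 1, NA 2, EDTA 1 and EDTA 2, a log2 fold change of 0.93 ± 0.10 (adjusted p = 0.000192). KRT6B and KRT6C rose by 1.80 ± 0.25 and 1.07 ± 0.17 (adjusted p = 0.00144 and 0.00156), but these 3 genes are nearly identical in sequence, so their separate values are uncertain. TGM1, the transglutaminase of the cornified envelope, had 210, 311, 68.0 and 73.0 CPM and a log2 fold change of -1.88 ± 0.15 (adjusted p = 1.89e-05). IVL, involucrin, another protein of that envelope, rose from 0.632 and 2.24 CPM to 5.84 and 7.99 CPM, a log2 fold change of 2.29 ± 0.58 (adjusted p = 0.0197), a call that ended without EDTA 1 (adjusted p = 0.0768) and without EDTA 2 (0.127). Of 13 keratins 3 rose and 3 fell (23.1% each way), and of 21 squamous differentiation genes 1 rose and 4 fell (4.76% and 19%). Over all genes tested the shares were 9.88% and 10%. The keratin count that fell was 0 without EDTA 1 or EDTA 2, the count that rose was 5 without Addback EDTA 1 or Addback EDTA 2, and the squamous count that fell was 1 without EDTA 1 or EDTA 2, 2 without Vector EDTA 2 and 7 without Addback EDTA 1 or Addback EDTA 2.

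**Figure D4:**
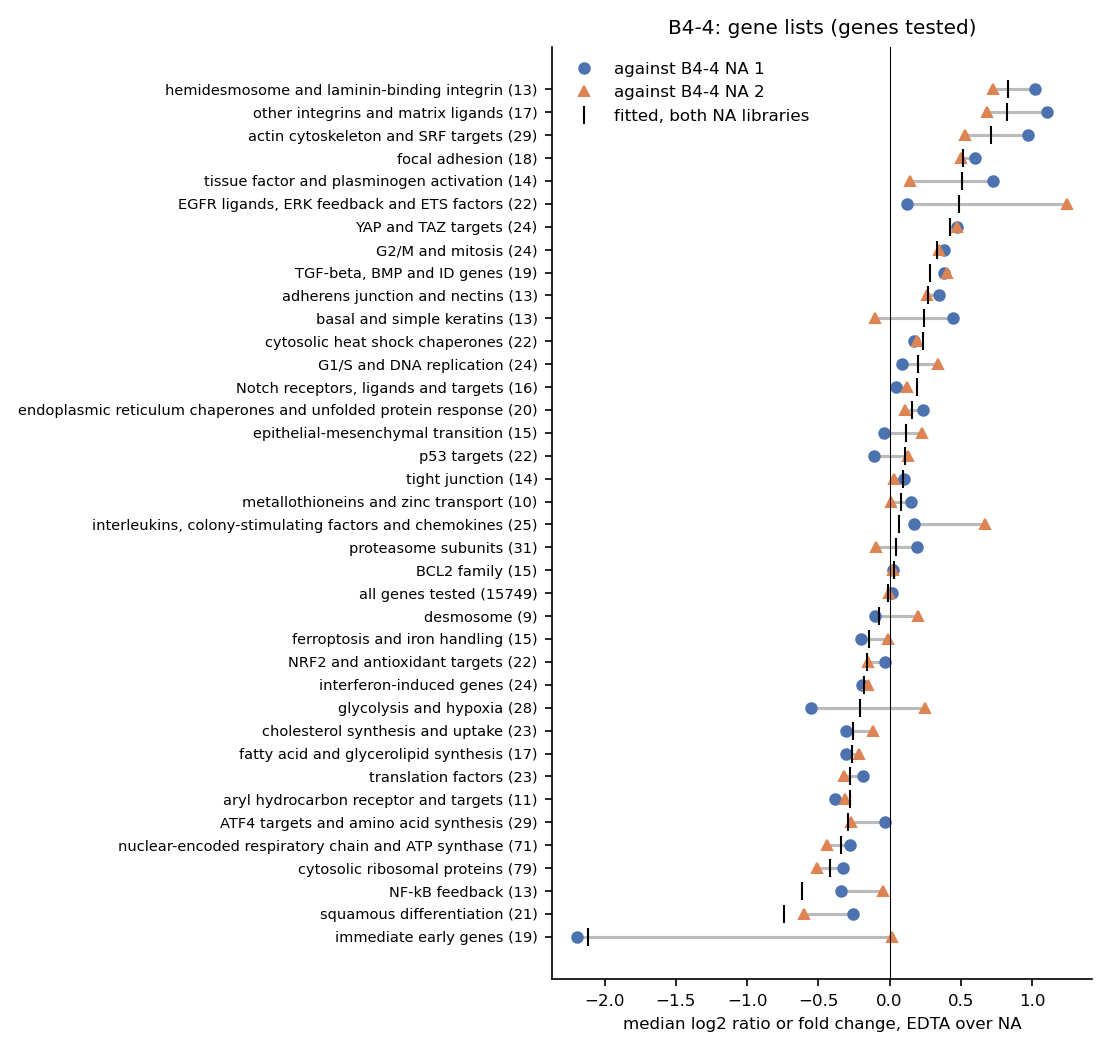
Median log2 ratio of the mean of both EDTA libraries to B4-4 NA 1 (blue circles) and to B4-4 NA 2 (orange triangles), with the median fitted log2 fold change (black ticks), for the lists with at least 9 genes tested and for all genes. The hemidesmosome, integrin and actin lists lie above 0 for both NA libraries, while the immediate early list lies at -2.20 for NA 1 and 0.02 for NA 2.

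The genes that set NA 1 apart from NA 2 included most immediate early genes and part of the hypoxia genes. Of 9313 genes whose mean reached 10 CPM, 282 (3.03%) were at least 2-fold apart, 197 of them lower in NA 2 and 85 higher. The EDTA mean lay beyond the NA 1 value in 54 of the 282, between NA 1 and NA 2 but nearer NA 1 in 76, between them but nearer NA 2 in 85 and beyond NA 2 in 67, and 37 of the 282 were called. All 19 immediate early genes, which transcribe within minutes of a growth factor or stress signal, were lower in NA 2 than in NA 1, 18 of them by at least 2-fold; over all tested genes 7482 of 15749 were lower in NA 2. EGR1, a zinc finger transcription factor, had 875 CPM in NA 1, 32.6 in NA 2, and 33.3 and 32.8 with EDTA, so its ratio was -4.71 against NA 1 and 0.02 against NA 2. FOS had 431, 7.41, 39.2 and 39.6 CPM, with the EDTA libraries between NA 1 and NA 2. FOSB, its relative, had 1323, 123, 34.5 and 34.4 CPM, below both. None of these 3 was called, with adjusted p of 0.114, 0.274 and 0.0835.

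NR4A1 and ATF3, transcription factors of the same early response, were called lower although NA 1 and NA 2 were far apart. NR4A1 had 187, 14.1, 3.36 and 3.04 CPM in NA 1, NA 2, EDTA 1 and EDTA 2, a log2 fold change of -4.97 ± 1.18 (adjusted p = 0.0324). With NA 2 as the only NA library it was -2.13 (adjusted p = 1.63e-05) and with NA 1 as the only one -5.86 (adjusted p = 2.28e-10). Such a fit assumes that the lone NA library varies like the libraries of other groups, and the NR4A1 call ended without EDTA 1 or EDTA 2 and without each Vector library and each Addback NA library in turn, with adjusted p of up to 0.181. ATF3 had 427, 73.1, 25.6 and 24.7 CPM, and lay at -1.54 with NA 2 alone and at -4.08 with NA 1 alone. Of the list, 5 of 19 genes fell and none rose; the count was 16 without NA 2, 4 without NA 1, and 1 without EDTA 1 or EDTA 2. It was 8 without either Addback EDTA library and 2 without any single Vector library or Addback NA library.

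Glycolysis and hypoxia genes followed the same split. Of 28 tested, 26 were lower in NA 2 than in NA 1, 12 of them by at least 2-fold, and the median was -0.55 against NA 1 and 0.25 against NA 2. CA9, a carbonic anhydrase that hypoxia induces, had 54.7, 1.34, 12.6 and 13.0 CPM in NA 1, NA 2, EDTA 1 and EDTA 2. EGLN3, an oxygen-sensing prolyl hydroxylase, had 37.1, 2.11, 6.15 and 6.66 CPM, and VEGFA, the vascular growth factor, 118, 29.8, 102 and 105 CPM. For CA9 the log2 fold change was 3.25 with NA 2 as the only NA library and -2.09 with NA 1, so the direction depended on which one was used. Of the 28 genes 3.57% were called higher and 10.7% lower, against 9.88% and 10% of all genes tested. The list had 1 gene higher and 3 lower in the comparison with both NA libraries, 11 higher without NA 1, and 18 lower without NA 2. The count that fell was 0 without EDTA 1, EDTA 2, or any single Vector NA or Addback NA library, and 5 without Addback EDTA 1 or Addback EDTA 2.

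Other genes were higher in NA 2 than in NA 1 and lay near NA 2 with EDTA. MMP9, a matrix-degrading protease, had 0.689, 16.9, 18.8 and 21.0 CPM in NA 1, NA 2, EDTA 1 and EDTA 2. ADAM19, a membrane protease, had 3.62, 30.7, 39.5 and 39.6 CPM, and FAP, a membrane serine protease, 5.68, 32.4, 44.1 and 42.5 CPM. In all 3 the EDTA libraries lay above NA 2, by log2 ratios of 0.23, 0.36 and 0.41. PDK4, a kinase that shuts off pyruvate dehydrogenase, went the other way: it had 53.8 and 208 CPM in NA 1 and NA 2 and 25.3 and 23.8 CPM with EDTA, a log2 fold change of -2.41 ± 0.81 (adjusted p = 0.0835), and it was called without NA 1 (-3.08, adjusted p = 0.0258).

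**Figure D5:**
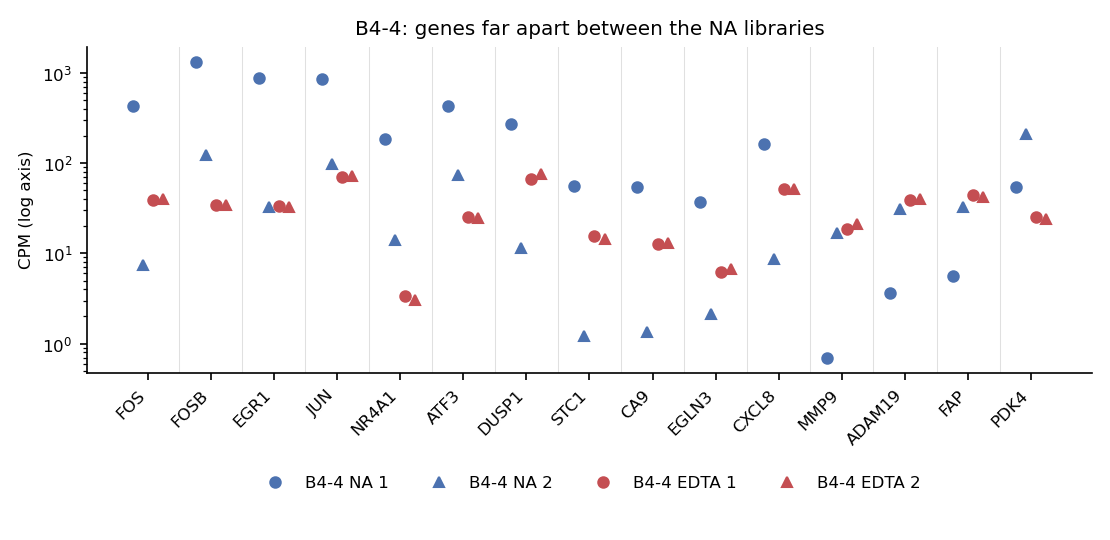
CPM on a log axis for 15 genes that lay far apart between B4-4 NA 1 (blue circles) and B4-4 NA 2 (blue triangles), with both B4-4 EDTA libraries in red. The EDTA pair lies together in every gene drawn, between the NA values for FOS and CA9 and outside both for FOSB, NR4A1 and FAP.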

How the data were processed

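Poly(A) RNA was sequenced as stranded, paired-end libraries, per the labels' protocols, and 1 table of raw counts by gene, whole numbers for all 12 libraries, was deposited by the authors. The submitters' processing notes name TopHat2 2.1.1, SAMtools 1.4.1 and featureCounts 1.5.3, and they list GRCh38, hg19 and hg38 as builds with no role for each. Neither the annotation release nor the strand setting of the counting is given in the sources used here. Gene IDs were paired with symbols from a list of gene names, which named 57392 of 58233. GENCODE release 29 gave the coordinates and filled in missing symbols where it could.

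Counts were tested with edgeR 4.0.16 (R 4.3.3; filterByExpr, TMM, robust quasi-likelihood) as 6 group means over 12 libraries, with the contrast of B4-4 EDTA minus B4-4 NA and Benjamini-Hochberg adjustment over 15749 genes. A gene was called, and written as having risen or fallen, at an adjusted p under 0.05; every adjusted p printed is from this test unless another tool is named. SEs were obtained by dividing each log2 fold change by √F. Ratios to single NA libraries used log2 of CPM plus 0.5. B4-4 depth was 15685376 to 19810710 counts. Total counts limit only the counting error; with 2 libraries a group, replicate spread sets the precision. No deposited column was left unused (0 columns).

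Genes named were ITGB4, ITGA6, NECTIN4 and PROM2, the 15 largest called changes in each direction at a mean of 5 CPM or more, the 4 smallest p in a list with members taken by role, and up to 10 genes in each direction that set NA 1 and NA 2 apart at 10 CPM or more. The 15 largest changes also had to have both EDTA libraries on one side of both NA libraries. The comparison, these rules and the 42 gene lists were chosen with earlier results of these data known. Alternatives were other scalings, no filter, DESeq2 1.42.0, limma 3.58.1 voom with a weight per group, a replicate block, a sample index term, the 4 B4-4 libraries alone, and each library left out. The fit was also run on simulated counts with 1 spread per gene in all 12 libraries. Such a run cannot check the error rate of a contrast whose NA libraries lie far apart.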

Additional observations from a re-analysis of the deposited data

How the results depend on the processing

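Against 3138 genes called (1556 higher, 1582 lower), limma voom with a weight per group called 1740 (883 higher, 857 lower). The 4 B4-4 libraries fitted alone called 291 (147 higher, 144 lower). That fit has fewer samples to estimate the spread and takes it from B4-4 libraries only. The main test uses 1 spread per gene for all 6 groups. At least 2-fold apart were 369 of 10632 genes in the B4-4 NA pair, 212 in Addback EDTA and 3 to 9 in the other pairs. The main p-values may thus understate the spread of the NA libraries. The part of each in the lower count was not tested. Leaving out 1 library at a time gave 726 to 4549 genes, 368 to 2422 higher and 358 to 2127 lower, the lowest without B4-4 EDTA 1 and the highest without B4-4 NA 1. Leaving out a B4-4 library leaves an arm of 1, which is then assumed to vary like the other groups. Upper-quartile factors called 3119 genes, 36.8% of them higher, and library totals 3095, 39.6% of them higher, against 49.6% with TMM. These scalings moved the median of all genes to -0.08 and -0.06 from -0.01. DESeq2 size factors in edgeR called 3119, the DESeq2 Wald test 3123, no filter 3650 and a term for the sample index 2622. No gene called with TMM was called in the opposite direction in any of these 21 settings. Leaving out 1 library could hardly have reversed a direction. In every called gene both EDTA libraries lay on one side of both NA libraries.

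The labels state no pairing of same-numbered libraries. The deviations of same-numbered B4-4 EDTA and NA libraries correlated at 0.10 across genes, and over the 15 pairs of groups at -0.17 to 0.32. Such correlations do not settle whether same-numbered libraries were handled together. A fit with the replicate number as a block called 3156 genes (1582 higher, 1574 lower).

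Of 108 called genes named in the text, 86 kept the call without each of the 12 libraries, and 54 lost it with the 4 B4-4 libraries alone, 8 without the filter on low counts, 6 with the sample index term, 6 with voom and 0 with the replicate block. Over leaving out each library, the DUSP1 log2 fold change ran from -1.928 to 2.629 and the CXCL8 log2 fold change from -1.661 to 2.574. The STC1 log2 fold change ran from -1.888 to 3.634, the CA9 log2 fold change from -2.09 to 3.247 and the EGLN3 log2 fold change from -2.529 to 1.599. In all 5 the lowest value was without B4-4 NA 2 and the highest, of the opposite sign, without B4-4 NA 1. The cause was not tested. Genes with few counts, such as most markers of other cell types, could not be tested.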

Other observations

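Among cytosolic heat shock chaperones 6 of 22 genes rose and none fell in edgeR's test, with a median log2 fold change of 0.23, and the count was 3 without B4-4 EDTA 2. HSPA8, the constitutive HSP70, had 2304 and 2494 CPM in NA 1 and NA 2 and 3566 and 3670 CPM with EDTA (adjusted p = 0.00174), and CHORDC1, an HSP90 co-chaperone, had 47.1, 30.9, 78.5 and 74.9 CPM (adjusted p = 0.00358). HSPH1, the nucleotide exchange factor HSP110, rose by a log2 fold change of 0.57 ± 0.09 (adjusted p = 0.00154).

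Of 22 targets of p53, 4 rose and 4 fell (18.2% each way), against 9.88% higher and 10% lower over all genes tested. BTG2, an antiproliferative gene, had 189 and 156 CPM in the NA libraries and 41.8 and 40.1 CPM with EDTA, a log2 fold change of -2.07 ± 0.14 (adjusted p = 9.76e-06). BBC3, the cell death protein PUMA, had 16.6, 10.7, 5.74 and 4.21 CPM (adjusted p = 0.00256), and TIGAR, a fructose bisphosphatase, rose from 28.1 and 28.7 CPM to 52.1 and 56.9 CPM (adjusted p = 0.00046). The count that rose was 1 without B4-4 EDTA 1 or EDTA 2 and 7 without NA 1, and the count that fell was 2 without either B4-4 EDTA library or any single Vector NA or Addback NA library. Of 13 NF-kB feedback genes 4 fell, with SOD2, the mitochondrial superoxide dismutase, at 759, 631, 344 and 343 CPM (adjusted p = 0.000636), and the count was 1 without B4-4 EDTA 1. Of 24 interferon-induced genes 5 fell, 1 without EDTA 1 and 3 without EDTA 2. Of 25 interleukin, colony-stimulating factor and chemokine genes 4 rose and none fell; the count that rose was 11 without NA 1, 1 without EDTA 1, 0 without EDTA 2 and 2 without any single Vector library or Addback NA library, and the count that fell was 6 without NA 2. Of 14 tissue factor and plasminogen activation genes 3 rose; the count was 1 without EDTA 1 or EDTA 2, 7 without NA 2 and 5 without either Addback EDTA library. Of 15 epithelial-mesenchymal transition genes 2 rose and 2 fell, and of 15 BCL2 family genes 1 rose and 2 fell. Of 10 metallothionein and zinc transport genes 1 rose and 2 fell. In these 3 small lists the shares ran from 6.67% to 20%, against 9.88% and 10% of all genes.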
